A study of Arabidopsis thaliana with 27 samples.

Results

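The SAUR (SMALL AUXIN UP RNA) genes described here are 44 loci of Arabidopsis thaliana chosen by gene ID as members of the family, out of 34262 genes in the count table. Of the 44, 42 had enough reads to be tested, among 20887 genes tested in all. AT5G27780 (SAUR75) had no read in any library, and AT4G13790 (SAUR25) had at most 2 reads in a library. Both were left out of every test.

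SAUR genes code for small proteins whose transcripts are short-lived and rise soon after plants receive auxin. Proteins of the SAUR19 subfamily bind and inhibit clade D PP2C phosphatases, which otherwise remove an activating phosphate from plasma membrane H+-ATPases. The active pump acidifies the cell wall, and the wall loosens as cells expand. Neighbours lower the ratio of red to far-red light, which activates PIF transcription factors that act on auxin synthesis genes and on growth genes, and hypocotyls then elongate.

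The libraries came from pools of whole 7-day-old seedlings of 3 genotypes. *pif457* is a triple mutant with the alleles pif4-101, pif5-3 and pif7-1, the libraries labelled *hfr1-101* carry an allele of HFR1, which codes for a bHLH protein that restrains PIFs, and Col-0 is the wild type. Seedlings of each genotype stayed in white light with a high red to far-red ratio (HRFR), or had far-red light added (LRFR) for the last 1 h or 25 h. Per the study's methods they grew in daily cycles of light and dark, so the 25 h span included a night. All were collected on day 7 at zeitgeber time 3 h, with 3 libraries in each of 9 groups, each from its own pool of seedlings.

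The 27 libraries held 24.9 to 34.9 M reads in genes (median 28.1 M), and levels are given as CPM, the reads of a gene per M reads of the library after TMM scaling. On the first axis of deviations from the group means, the first replicates of Col-0 in HRFR and of Col-0 at LRFR 25 h lay far out, at -32.1 and -38.5, against -16.3 to 23.5 for the other 25 libraries. In HRFR, PIF5 was at 12.8 ± 1.19 CPM in *pif457* and 156 ± 9.62 CPM in Col-0, PIF7 at 3.24 ± 0.546 and 51.0 ± 2.26 CPM, and PIF4 at 50.7 ± 0.0256 and 104 ± 2.39 CPM (SD, n = 3 each). HFR1 was at 19.5 to 20.3 CPM in the HRFR libraries labelled *hfr1-101*, against 13.6 to 18.4 CPM in Col-0. The lesion of this allele is not given in the sources used here, so the transcript does not check the label. Shoot markers summed to 34222 to 64569 CPM and root markers to 2920 to 5409 CPM over the 9 groups, with reads for all 6 genes of each list. In such bulk samples, fewer cells of a type and less RNA per cell cannot be told apart.

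Most members stand side by side in the genome. In the TAIR10.1 RefSeq annotation, 31 members fell into 7 genomic clusters of neighbours and 13 stood elsewhere. SAUR19 to SAUR24 lie within chr5:5962773-5984308, the 8 genes SAUR61 to SAUR68 within chr1:10301377-10323239, and SAUR26 to SAUR29 within chr3:976715-983768. A single exon holds the whole transcript in 42 of the 44, and the coding sequences are 261 to 561 bases long (median 327). Coding sequences were most alike among SAUR19 to SAUR24, with 87.7 to 95.3% identity over 15 pairs, against 78.9 to 86.3% over 6 pairs in SAUR26 to SAUR29 and 49.5 to 89.8% over 28 pairs in SAUR61 to SAUR68. The first 54 coding bases of the SAUR19 cluster are shown because this likeness bears on the counts of this cluster. Capitals mark bases that differ from SAUR22.
SAUR19 (AT5G18010, chr5:5963252-5963305, minus strand): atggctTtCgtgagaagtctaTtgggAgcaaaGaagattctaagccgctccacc
SAUR20 (AT5G18020, chr5:5966527-5966580, minus strand): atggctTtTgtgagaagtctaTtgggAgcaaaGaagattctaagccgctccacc
SAUR21 (AT5G18030, chr5:5968527-5968580, plus strand): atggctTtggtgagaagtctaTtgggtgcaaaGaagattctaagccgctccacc
SAUR22 (AT5G18050, chr5:5974910-5974963, minus strand): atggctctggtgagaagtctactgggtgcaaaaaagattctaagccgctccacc
SAUR23 (AT5G18060, chr5:5976030-5976083, plus strand): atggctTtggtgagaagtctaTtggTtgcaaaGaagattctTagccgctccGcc
SAUR24 (AT5G18080, chr5:5983840-5983893, plus strand): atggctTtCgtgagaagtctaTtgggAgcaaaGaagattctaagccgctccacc
RefSeq lists AT1G29490 with the synonym SAUR68 and AT1G29510 with the symbol SAUR68 and the synonym SAUR67, and the last name is used here for AT1G29510. The near copies limit how reads can be assigned. Of the 50-base stretches of the SAUR19 to SAUR24 transcripts, 81.5% (SAUR19) to 99.4% (SAUR22) occur only once in the genome, and all 100-base stretches do. For SAUR62 (AT1G29430), SAUR63 (AT1G29440) and SAUR67 (AT1G29510) 76.8, 72.9 and 66.1% of the 50-base stretches are found only once. The separate counts of these genes are therefore less certain than those of SAUR26 to SAUR29, where every 50-base stretch occurs only once. In the annotation AT2G21200 (SAUR7) and AT2G21210 (SAUR6) overlap on the same strand, and SAUR61, SAUR63, SAUR64, SAUR7 and SAUR8 overlap a gene on the other strand. The kit keeps strand, but the strand setting of the counting is not given in the sources used here.

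Upstream of the members a PIF-binding motif was frequent. The 250 bases before the annotated gene start were searched on both strands for the G-box CACGTG and the PBE-box CACATG, both bound by PIFs, and for the auxin response element TGTCTC (AuxRE), bound by auxin response factors. No run of letters counts for more than 1 of these 3 motifs. The PBE-box was found in 27 of 44 members (61.4%), against 11.1% of 27444 protein-coding genes. It was in 8 of 8 genes of the SAUR61 cluster, 4 of 4 of the SAUR26 cluster and 3 of 6 of the SAUR19 cluster. In the other clusters it was in 4 of 5 from SAUR50 to SAUR5 (AT4G34760 to AT4G34810), 2 of 3 from SAUR14 to SAUR16, 1 of 3 from SAUR7 to SAUR12 and 0 of 2 for SAUR54 and SAUR53. Over all members with the box, the nearest match lay at a median of 79 bases from the gene start. Of the 24 members that rose in Col-0 at LRFR 1 h, described below, 17 had the box, and so had 10 of the other 20. The other 20 include SAUR75 and SAUR25, which were not tested and both had the box. The G-box was in 0 of 44 windows, against 6.49% of all genes, and the AuxRE in 7 (15.9%), against 10.9%. The AuxRE was in 7 of the 24 members that rose and in 0 of the other 20. These splits by response were not tested. Over 1000 bases, 34 members (77.3%) had the PBE-box, against 37.7% of all genes. The members are related by duplication, and some windows of neighbours share bases, so these windows are not independent of each other. The PBE-box of SAUR23 in the longer window is the one nearest to SAUR22. The 250-base window of SAUR7 (AT2G21200), with 3 AuxRE matches, lies inside the annotated SAUR6 gene.

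Upstream windows of 5 genes are printed because these genes differ in their response, as described below. Capitals mark a PBE-box or an AuxRE on either strand.
SAUR22 (AT5G18050, chr5:5975088-5975337, minus strand): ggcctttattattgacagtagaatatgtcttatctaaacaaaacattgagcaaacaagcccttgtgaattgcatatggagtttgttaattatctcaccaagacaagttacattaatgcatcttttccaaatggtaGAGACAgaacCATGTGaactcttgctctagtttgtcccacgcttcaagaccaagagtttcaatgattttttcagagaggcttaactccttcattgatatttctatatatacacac
SAUR65 (AT1G29460, chr1:10308247-10308496, minus strand): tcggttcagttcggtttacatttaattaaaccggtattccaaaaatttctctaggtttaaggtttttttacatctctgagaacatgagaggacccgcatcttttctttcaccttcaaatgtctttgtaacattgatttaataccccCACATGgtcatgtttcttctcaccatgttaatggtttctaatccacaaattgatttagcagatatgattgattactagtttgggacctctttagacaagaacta
SAUR28 (AT3G03830, chr3:980563-980812, minus strand): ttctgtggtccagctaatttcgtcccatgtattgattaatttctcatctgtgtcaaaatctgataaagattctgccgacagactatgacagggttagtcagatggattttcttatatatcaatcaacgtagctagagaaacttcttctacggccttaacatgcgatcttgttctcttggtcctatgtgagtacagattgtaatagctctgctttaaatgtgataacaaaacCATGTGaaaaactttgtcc
SAUR10 (AT2G18010, chr2:7833532-7833781, plus strand): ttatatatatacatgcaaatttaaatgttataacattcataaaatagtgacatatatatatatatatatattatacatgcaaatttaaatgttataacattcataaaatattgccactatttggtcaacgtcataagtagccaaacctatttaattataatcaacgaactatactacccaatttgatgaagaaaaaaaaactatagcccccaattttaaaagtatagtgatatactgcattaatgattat
SAUR14 (AT4G38840, chr4:18125560-18125809, minus strand): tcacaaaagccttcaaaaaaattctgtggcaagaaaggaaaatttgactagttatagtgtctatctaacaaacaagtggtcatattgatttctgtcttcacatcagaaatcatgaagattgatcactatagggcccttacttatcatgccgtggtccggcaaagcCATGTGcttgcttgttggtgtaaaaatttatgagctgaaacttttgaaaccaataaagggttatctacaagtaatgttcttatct
SAUR22, SAUR65 and SAUR28 hold a PBE-box, and SAUR22 also an AuxRE. SAUR10 has neither within 250 bases, and SAUR14 has the PBE-box. A match is a description of these letters, not a bound site.

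**Figure D1:**
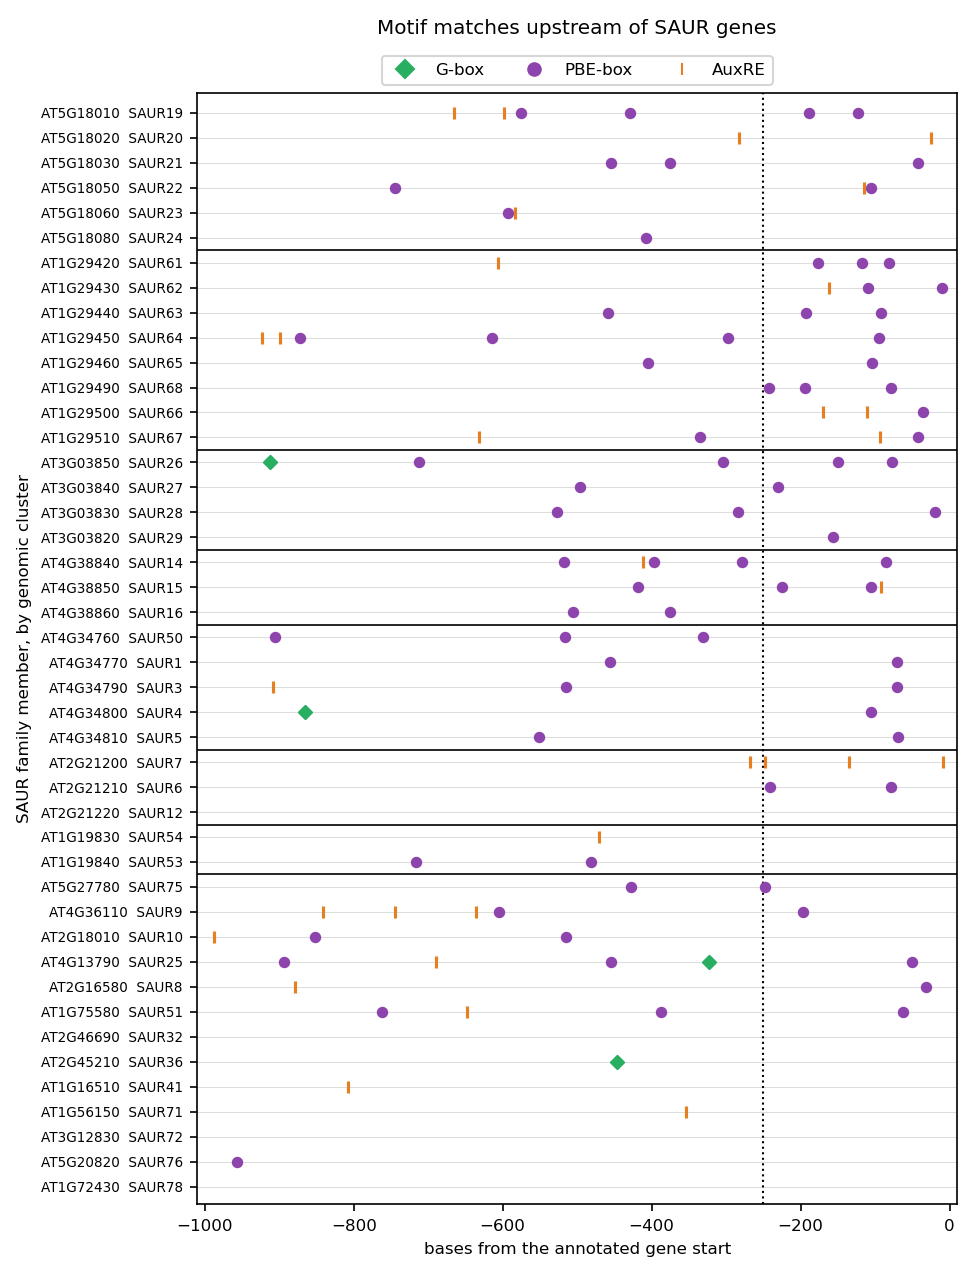
Matches to the G-box (diamonds), PBE-box (circles) and AuxRE (bars) in the 1000 bases upstream of each of 44 SAUR members, plotted by distance from the annotated gene start, with genomic clusters divided by lines. The dotted line marks 250 bases; 27 members have a PBE-box between it and the gene start, and none has a G-box there.

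In Col-0 in HRFR the members differed widely in level. Per kilobase of exon, the highest were SAUR78 (AT1G72430) at 113 CPM per kb, SAUR14 (AT4G38840) at 111 and SAUR16 (AT4G38860) at 68.8 CPM per kb. SAUR32 (AT2G46690) followed at 30.8 CPM per kb. SAUR20 (AT5G18020) was the highest of its cluster at 25.2 CPM per kb. At LRFR 1 h, SAUR16, SAUR20, SAUR14 and SAUR78 were the highest, at 112, 109, 101 and 92.3 CPM per kb. SAUR20's annotated gene span is longer than the single transcript whose length was used, so its level per kb depends on that length.

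Most of the tested members were higher in Col-0 after LRFR for 1 h. Against HRFR, 24 of 42 rose and 0 fell (edgeR quasi-likelihood F-test, Benjamini-Hochberg adjusted p under 0.05 and absolute log2 fold change above 0.6), where 1.42% of all genes tested rose. The median log2 fold change of the 42 members was 1.33, against -0.01 for all genes. The members were chosen with earlier results of these data known, so these shares are not those of the whole family. Of 19 further family genes tested, 3 rose. Increases were found in 6 of 6 genes of the SAUR19 cluster, 7 of 8 of the SAUR61 cluster, 4 of 4 of the SAUR26 cluster, 2 of 3 from SAUR14 to SAUR16, 2 of 5 from SAUR50 to SAUR5 (AT4G34760 to AT4G34810), 1 of 3 from SAUR7 to SAUR12, 0 of 2 for SAUR54 and SAUR53, and 2 of the 11 tested genes outside clusters. The count was 24 without any single library and 24 with DESeq2. Of 4 guard cell markers, 1 rose and 3 did not pass, with a list median of log2 -0.20. The marker that rose was the potassium channel gene KAT1, at 134 ± 23.9 CPM at LRFR 1 h and 26.6 ± 2.31 CPM in HRFR (SD, n = 3 each), and it carried the sum of the list, which was 139 to 187 CPM at LRFR 1 h in Col-0, against 51.4 to 59.1 CPM in HRFR. The part of these markers in the SAUR response was not tested.

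**Figure D2:**
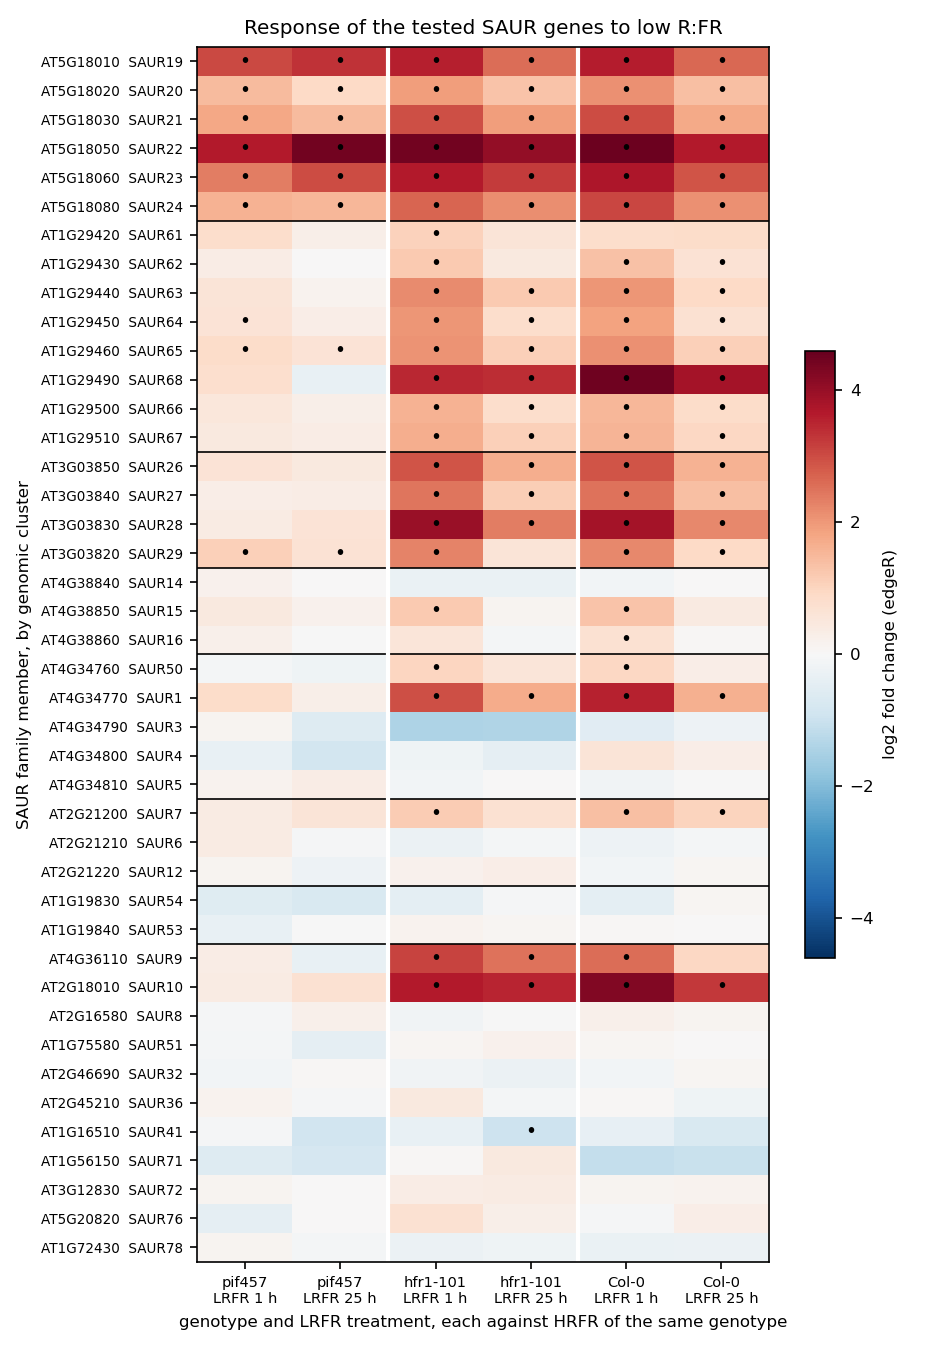
Log2 fold change of each of 42 tested members (rows, by genomic cluster) after LRFR for 1 h and 25 h against HRFR of the same genotype, for pif457, hfr1-101 and Col-0 (columns); red is higher in LRFR, blue lower, and a dot marks a change that passed the test. Dots fill 24 rows in Col-0 at 1 h and 9 in pif457 at 1 h, 6 of them in the SAUR19 cluster.

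The SAUR19 cluster codes for the phosphatase inhibitors described above. In Col-0 its summed level was 30.6 ± 3.05 CPM in HRFR, 237 ± 40.2 CPM at LRFR 1 h and 121 ± 7.25 CPM at LRFR 25 h (SD, n = 3), that is 7.74 and 3.96 times the HRFR level. All 6 genes rose at 1 h, by log2 2.11 (SAUR20, AT5G18020) to 4.52 (SAUR22, AT5G18050), with a median of 3.34. SAUR22 was at 1.62, 1.05 and 1.31 CPM in HRFR, 29.1, 27.2 and 36.5 CPM at LRFR 1 h, and 18.8, 14.6 and 16.7 CPM at LRFR 25 h in Col-0. The 3 conditions did not overlap. Its log2 fold change was 4.52 ± 0.17 at 1 h (SE, edgeR adjusted p = 3.5e-15) and 3.63 ± 0.18 at 25 h (edgeR adjusted p = 1.3e-12). SAUR23 (AT5G18060) was at 2.59, 1.44 and 2.07 CPM in HRFR, 25.0, 22.4 and 34.3 CPM at LRFR 1 h, and 17.6, 13.8 and 14.3 CPM at LRFR 25 h. Again no library of a condition reached into another. The log2 fold change was 3.72 ± 0.18 at 1 h (edgeR adjusted p = 3.2e-13). Genes given library by library, here and below, were picked by the size or the call of their change in these data. A lack of overlap between their libraries therefore describes the values and adds no support. The share of all genes without overlap was not counted.

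The SAUR61 cluster, of which SAUR63 is known to promote hypocotyl growth, rose by a smaller median. Its sum was 61.6 ± 7.16 CPM in HRFR, 200 ± 30.2 CPM at LRFR 1 h and 109 ± 4.82 CPM at LRFR 25 h in Col-0 (SD, n = 3). The median log2 fold change at 1 h was 1.69, and SAUR61 (AT1G29420), at 0.82, did not pass. SAUR63 (AT1G29440) averaged 51.9 CPM at LRFR 1 h and 12.5 CPM in HRFR, a log2 difference of 2.05. SAUR65 (AT1G29460) was at 5.52, 4.17 and 3.48 CPM in HRFR, 17.5, 15.3 and 23.7 CPM at LRFR 1 h, and 9.69, 9.73 and 8.97 CPM at LRFR 25 h. The 3 conditions stayed apart, and the log2 fold change was 2.09 ± 0.15 at 1 h (edgeR adjusted p = 3.7e-10). AT1G29490 (SAUR68) was nearly silent in HRFR, with 4 reads over the 3 Col-0 libraries, against 87 reads at LRFR 1 h. Its level was 0.0305, 0.039 and 0.0657 CPM in HRFR, 0.884, 1.12 and 1.29 CPM at LRFR 1 h, and 0.888, 0.244 and 0.938 CPM at LRFR 25 h. The ratio of 1 h to HRFR was 24.0, with an exact 95% counting interval of 9.06 to 90.2. This interval pools the reads of each group and leaves out the spread between seedling pools. In edgeR the log2 fold change was 4.47 and passed the test.

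In the SAUR26 cluster every gene rose, by a median of log2 2.69. The cluster sum was 8.41 ± 1.35 CPM in HRFR, 50.1 ± 2.74 CPM at LRFR 1 h and 20.3 ± 1.91 CPM at LRFR 25 h in Col-0 (SD, n = 3). SAUR28 (AT3G03830) was at 0.275, 0.546 and 0.559 CPM in HRFR, 6.87, 6.28 and 6.26 CPM at LRFR 1 h, and 2.59, 1.67 and 1.99 CPM at LRFR 25 h, a log2 fold change of 3.83 ± 0.22 at 1 h (edgeR adjusted p = 3.7e-12). SAUR26 (AT3G03850) was at 1.89, 1.64 and 1.87 CPM in HRFR, 13.3, 11.5 and 15.6 CPM at LRFR 1 h, and 6.14, 4.72 and 5.44 CPM at LRFR 25 h, a log2 fold change of 2.89 ± 0.17 at 1 h (edgeR adjusted p = 5.2e-12). For both genes the 1 h libraries were the highest and the HRFR libraries the lowest, with no overlap. SAUR27 (AT3G03840) and SAUR29 (AT3G03820) rose by log2 2.49 and 2.21.

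**Figure D3:**
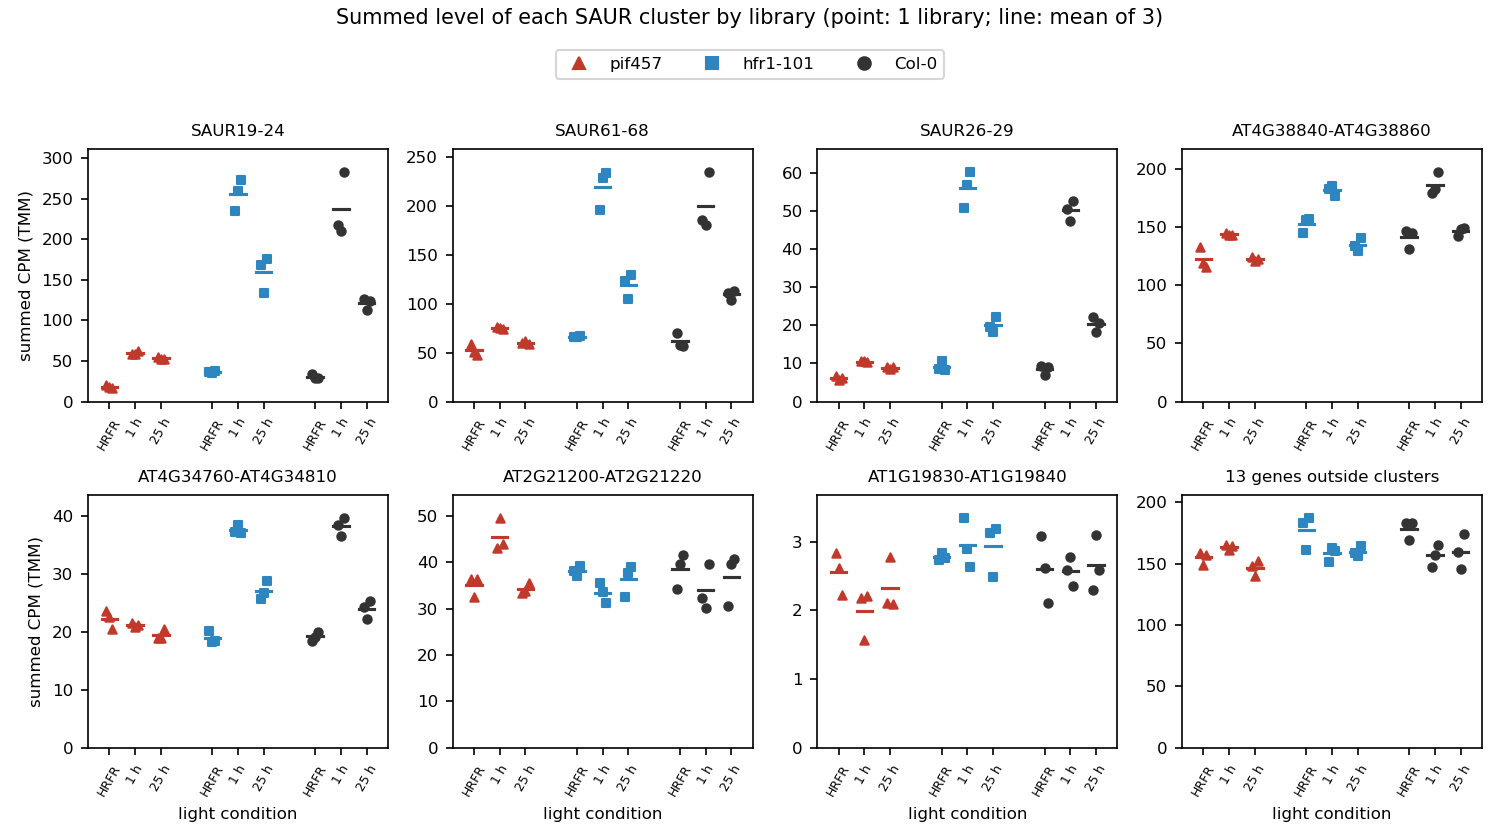
Summed CPM of each genomic cluster and of the 13 genes outside clusters, in every library of pif457, hfr1-101 and Col-0, by light condition (points are libraries, lines are means of 3). The SAUR19 cluster sum reached 210 to 283 CPM in Col-0 at LRFR 1 h and 59.0 to 62.5 CPM in pif457.

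In other clusters neighbours differed. SAUR15 (AT4G38850), the founding Arabidopsis SAUR gene, was at 10.4, 9.42 and 11.1 CPM at LRFR 1 h and 4.64, 3.23 and 4.44 CPM in HRFR, a log2 fold change of 1.32 ± 0.12 (edgeR adjusted p = 1.6e-08). SAUR16 (AT4G38860), beside it, was at 108, 116 and 128 CPM at LRFR 1 h and 77.3, 65.5 and 73.4 CPM in HRFR, a smaller change of 0.70 ± 0.07 (edgeR adjusted p = 5.1e-08). SAUR14 (AT4G38840), the third of this group, averaged 58.9 CPM at LRFR 1 h and 64.7 CPM in HRFR and did not pass (log2 -0.14). SAUR1 (AT4G34770) was at 4.05, 2.67 and 2.66 CPM at LRFR 1 h and 0.366, 0.195 and 0.230 CPM in HRFR, a log2 fold change of 3.52 ± 0.33 (edgeR adjusted p = 3.2e-08). SAUR50 (AT4G34760), known from cotyledon and hypocotyl growth, was at 32.8, 31.6 and 35.6 CPM at LRFR 1 h and 16.5, 17.9 and 17.9 CPM in HRFR, a log2 fold change of 0.94 ± 0.06 (edgeR adjusted p = 1.6e-10). In none of these 4 genes, picked by the size of this change, did the HRFR and 1 h libraries overlap. Their neighbours SAUR3 (AT4G34790), SAUR4 (AT4G34800) and SAUR5 (AT4G34810) were at 1.37 CPM or less in every library and did not pass.

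Of the pair that overlaps on the same strand, SAUR7 (AT2G21200) was at 2.14, 2.06 and 2.27 CPM at LRFR 1 h and 1.04, 0.974 and 0.493 CPM in HRFR, without overlap (log2 1.37 ± 0.27, edgeR adjusted p = 0.0022). SAUR6 (AT2G21210) was at 29.3, 27.4 and 36.0 CPM at LRFR 1 h and 32.2, 37.8 and 39.8 CPM in HRFR, and these ranges overlapped. SAUR54 (AT1G19830) was at 0.306, 0.289 and 0.300 CPM at LRFR 1 h and 0.305, 0.507 and 0.427 CPM in HRFR. SAUR53 (AT1G19840) was at 2.28, 2.49 and 2.06 CPM at LRFR 1 h and 2.78, 2.1 and 1.68 CPM in HRFR. SAUR6, SAUR54 and SAUR53 did not pass the test.

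Outside the clusters, SAUR10 and SAUR9 were the genes that rose. SAUR10 (AT2G18010) was at 0.397, 0.156 and 0.131 CPM in HRFR, 3.44, 3.86 and 6.60 CPM at LRFR 1 h, and 2.74, 1.71 and 2.29 CPM at LRFR 25 h, with log2 fold changes of 4.27 ± 0.37 at 1 h (edgeR adjusted p = 1.3e-08) and 3.24 ± 0.40 at 25 h. SAUR9 (AT4G36110) was at 1.67, 1.84 and 1.76 CPM at LRFR 1 h and 0.336, 0.234 and 0.296 CPM in HRFR, a log2 fold change of 2.57 ± 0.33 (edgeR adjusted p = 7.8e-06). Both genes had no overlap between HRFR and 1 h. The other 9 tested genes of this group, SAUR8 (AT2G16580), SAUR51 (AT1G75580), SAUR32 (AT2G46690), SAUR36 (AT2G45210), SAUR41 (AT1G16510), SAUR71 (AT1G56150), SAUR72 (AT3G12830), SAUR76 (AT5G20820) and SAUR78 (AT1G72430), did not pass in Col-0 at 1 h or 25 h. SAUR36, which is known for a part in leaf senescence, averaged 3.30 CPM at LRFR 1 h and 3.21 CPM in HRFR. SAUR78 was at 111 CPM at LRFR 1 h and 136 CPM in HRFR.

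**Figure D4:**
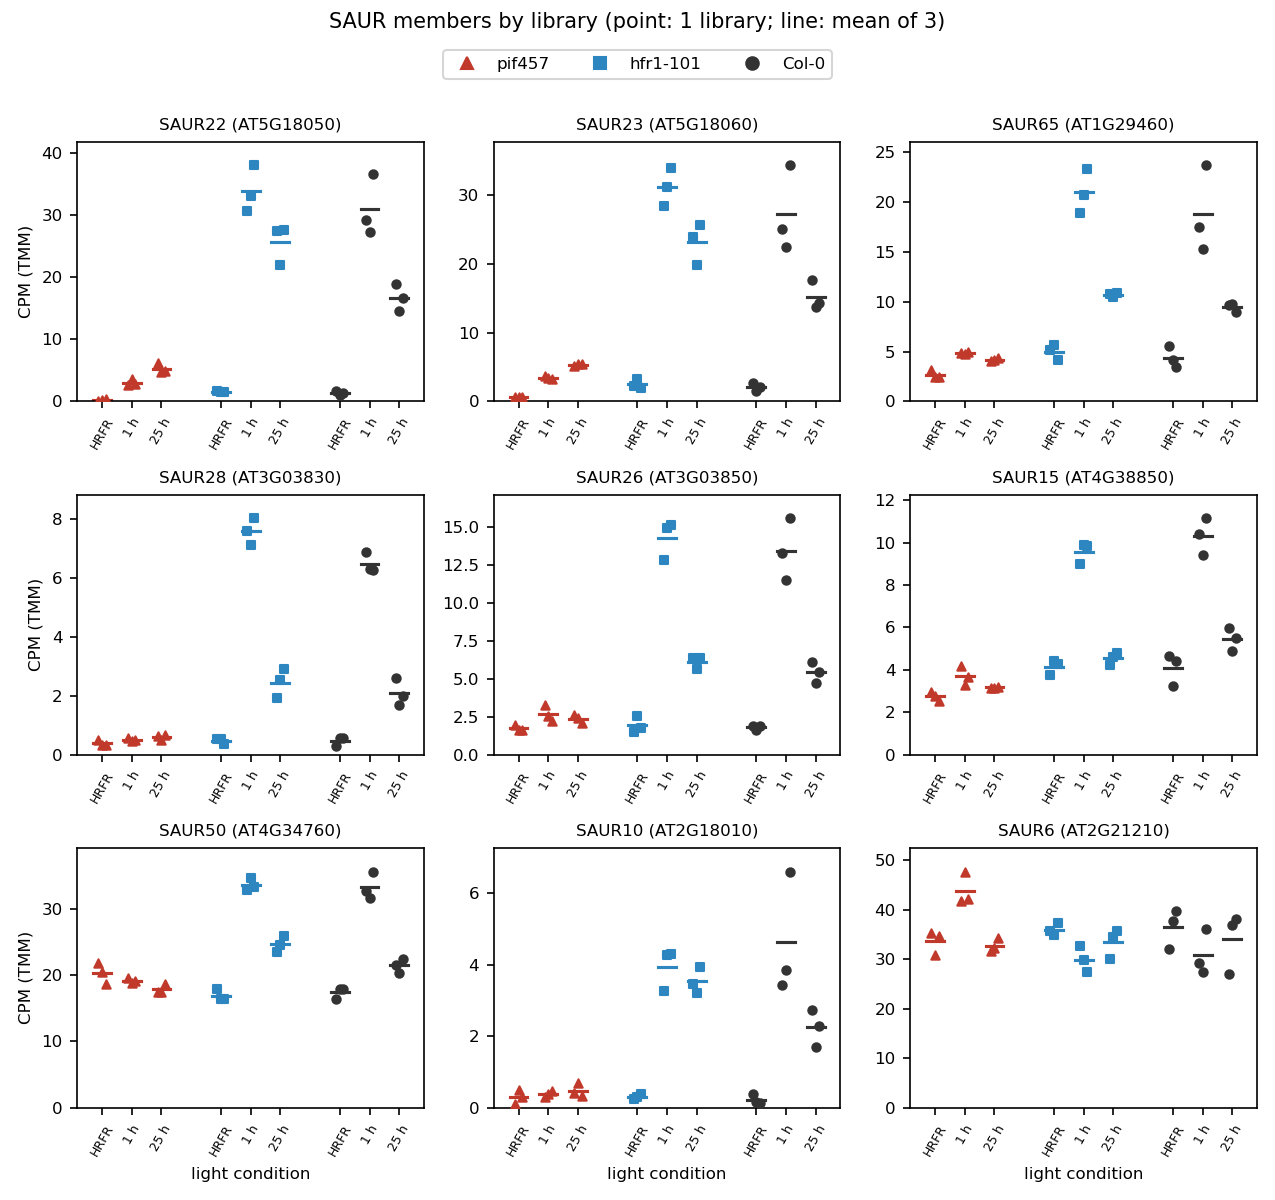
CPM with TMM scaling of 9 members in every library of pif457, hfr1-101 and Col-0 by light condition (points are libraries, lines are means of 3). SAUR22 in pif457 lies at 2.70 to 3.54 CPM at LRFR 1 h and 4.72 to 6.21 CPM at 25 h, and SAUR28 in pif457 stays between 0.327 and 0.678 CPM in all 9 libraries.

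After 25 h of LRFR most genes of the SAUR19, SAUR61 and SAUR26 clusters were still above HRFR. Against HRFR, 20 of 42 members rose in Col-0 and 0 fell, where 2.38% of all genes rose, with 6 of 6 in the SAUR19 cluster, 7 of 8 in the SAUR61 cluster and 4 of 4 in the SAUR26 cluster. Medians of the log2 fold change in these clusters were 2.36, 0.88 and 1.48. At 25 h against 1 h, 21 of 42 members were lower and 0 higher (2.36% of all genes were lower). The 6 genes of the SAUR19 cluster were lower by a median of log2 -0.93 and the 4 of the SAUR26 cluster by -1.29, and 5 of 8 in the SAUR61 cluster were lower. SAUR15, SAUR16, SAUR50 and SAUR9, which rose at 1 h, did not pass at 25 h against HRFR, with log2 values of 0.40, 0.06, 0.30 and 0.94. At 25 h against 1 h these 4 fell by 0.92, 0.64, 0.63 and 1.64 on the log2 scale. SAUR7's 25 h value of 1.04 lost its call in some alternatives (adjusted p up to 0.20). Shoot markers summed to 34222 to 48696 CPM at LRFR 25 h in Col-0, against 55201 to 64569 CPM in HRFR, without overlap. Of these 6 markers 1 was lower and 5 did not pass, with a list median of log2 -0.45. The guard cell marker sum was 76.1 to 86.8 CPM at LRFR 25 h, against 51.4 to 59.1 CPM in HRFR, with KAT1 higher by log2 1.01 and 3 of the 4 not past the test. The part of either list in the 25 h values was not tested.

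In *pif457* fewer members passed the test, and most of those were in the SAUR19 cluster. At LRFR 1 h, 9 of 42 members rose against HRFR and 0 fell, where 0.139% of all genes, 29 in number, rose. These 9 were the 6 genes of the SAUR19 cluster with SAUR64 (AT1G29450), SAUR65 (AT1G29460) and SAUR29 (AT3G03820). At 25 h, 8 of 42 rose and 0 fell, where 0.498% of all genes rose, again with 6 of 6 in the SAUR19 cluster. SAUR65 at 25 h was close to the threshold, with log2 0.64 ± 0.17 (edgeR adjusted p = 0.050), and lost the call in 23 of 33 alternatives. Its call at 1 h was lost in 6 of 33 alternatives, each leaving out 1 *pif457* library (edgeR adjusted p up to 0.26).

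The response itself was compared by the interaction of genotype and light. For LRFR 1 h, 20 of 42 members had a smaller response in *pif457* than in Col-0 and 2 a larger one, where 1.16% of all genes had a lower and 0.876% a higher value. The lower values were in 4 of 4 genes of the SAUR26 cluster, 6 of 8 of the SAUR61 cluster and 4 of 6 of the SAUR19 cluster. The 2 higher values were those of SAUR14 (AT4G38840) and SAUR6 (AT2G21210). Neither gene passed at 1 h against HRFR in either genotype. Their log2 values were -0.14 and -0.24 in Col-0, and 0.20 and 0.38 in *pif457*. Median interaction values were -2.22 in the SAUR26 cluster, -1.15 in the SAUR61 cluster and -1.04 in the SAUR19 cluster, on the log2 scale. For LRFR 25 h, 5 of 42 members had a smaller response (0.345% of all genes), namely SAUR62, SAUR63, SAUR26, SAUR27 and SAUR50, with 0 of 6 in the SAUR19 cluster. That count was 0 when the 4 groups compared were fitted alone. It was 1 without Col-0 HRFR replicate 2 or *pif457* LRFR 25 h replicate 3, and 2 without *pif457* HRFR replicate 1, Col-0 LRFR 25 h replicate 3, or *pif457* LRFR 25 h replicate 1 or 2. It was 3 without Col-0 HRFR replicate 3, *pif457* HRFR replicate 2 or 3, *pif457* LRFR 1 h replicate 2, any of the 3 *hfr1-101* LRFR 1 h libraries, or *hfr1-101* LRFR 25 h replicate 1.

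SAUR22 and SAUR28 differed in *pif457*, but neither stands for its whole cluster. The SAUR19 cluster held 2 genes whose 1 h interaction did not pass, SAUR22 among them. In the SAUR26 cluster the 1 h interactions ran from -3.43, that of SAUR28, to -1.11. The HRFR libraries of *pif457* held only 4, 8 and 9 reads of SAUR22. SAUR22 (AT5G18050) was at 0.131, 0.262 and 0.327 CPM in HRFR, 2.70, 3.54 and 2.81 CPM at LRFR 1 h and 6.21, 4.72 and 4.87 CPM at LRFR 25 h in *pif457*. The conditions did not overlap, and 25 h was the highest, where in Col-0 it was 1 h. The log2 fold change in *pif457* was 3.65 ± 0.29 at 1 h (edgeR adjusted p = 5.4e-08) and 4.44 ± 0.26 at 25 h (edgeR adjusted p = 3.7e-10), and the interactions of -0.87 ± 0.44 and 0.81 ± 0.38 did not pass (edgeR adjusted p = 0.55 and 0.72). SAUR28 (AT3G03830) was at 0.490, 0.328 and 0.327 CPM in HRFR, 0.555, 0.465 and 0.493 CPM at LRFR 1 h and 0.629, 0.484 and 0.678 CPM at LRFR 25 h in *pif457*. Its libraries overlapped between conditions, and the interaction at 1 h was -3.43 ± 0.39 (edgeR adjusted p = 4.9e-06).

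Other members of the SAUR19 cluster kept a rise of different size. SAUR23 (AT5G18060) was at 0.653, 0.688 and 0.654 CPM in HRFR, 3.62, 3.33 and 3.30 CPM at LRFR 1 h and 5.10, 5.41 and 5.39 CPM at LRFR 25 h in *pif457*, with no overlap between conditions. Its interaction at 1 h was -1.36 ± 0.35 (edgeR adjusted p = 0.039), a call that was lost in 9 of 33 alternatives. SAUR19 (AT5G18010) averaged 0.240 CPM in HRFR, 1.99 CPM at LRFR 1 h and 2.42 CPM at LRFR 25 h in *pif457*, against 1.17, 14.6 and 7.35 CPM in Col-0. SAUR20 (AT5G18020) averaged 8.77, 23.9 and 16.7 CPM in *pif457*, against 12.5, 53.9 and 32.4 CPM in Col-0. In *pif457* all 3 libraries at 25 h lay above those at 1 h for SAUR22 and SAUR23 and below them for SAUR20 and SAUR21 (AT5G18030), while for SAUR19 and SAUR24 (AT5G18080) they overlapped. The difference between 25 h and 1 h was not tested in *pif457*.

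Most of the other members described for Col-0 had a smaller response in *pif457*. SAUR10 (AT2G18010) was at 0.0979, 0.492 and 0.291 CPM in HRFR, 0.296, 0.394 and 0.455 CPM at LRFR 1 h and 0.407, 0.695 and 0.339 CPM at LRFR 25 h in *pif457*, with an interaction of -3.89 ± 0.67 at 1 h (edgeR adjusted p = 0.0011). SAUR26 (AT3G03850) was at 1.96, 1.61 and 1.60 CPM, 3.25, 2.54 and 2.24 CPM, and 2.63, 2.42 and 2.09 CPM in these conditions, with interactions of -2.26 ± 0.25 at 1 h (edgeR adjusted p = 3.6e-06) and -1.13 ± 0.26 at 25 h (edgeR adjusted p = 0.047). The 25 h interaction of SAUR26 was lost in 22 of 33 alternatives. SAUR1 (AT4G34770) was at 0.296, 0.680 and 0.380 CPM at LRFR 1 h and 0.294, 0.197 and 0.254 CPM in HRFR in *pif457*, with an interaction of -2.66 ± 0.57 (edgeR adjusted p = 0.0088). SAUR9 (AT4G36110) was at 0.444, 0.501 and 0.531 CPM at LRFR 1 h and 0.392, 0.262 and 0.509 CPM in HRFR, with an interaction of -2.22 ± 0.51 (edgeR adjusted p = 0.018).

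SAUR65 (AT1G29460), of the SAUR61 cluster, was at 4.81, 4.76 and 4.97 CPM at LRFR 1 h and 3.17, 2.49 and 2.40 CPM in HRFR in *pif457*, with an interaction of -1.24 ± 0.23 (edgeR adjusted p = 0.0024). SAUR15 (AT4G38850) was at 4.18, 3.29 and 3.68 CPM at LRFR 1 h and 2.94, 2.75 and 2.54 CPM in HRFR, with an interaction of -0.89 ± 0.18 (edgeR adjusted p = 0.0046). SAUR50 (AT4G34760) was at 19.5, 18.9 and 19.1 CPM at LRFR 1 h and 21.8, 20.5 and 18.6 CPM in HRFR, with an interaction of -1.02 ± 0.09 at 1 h (edgeR adjusted p = 1.3e-07) and -0.49 ± 0.09 at 25 h (edgeR adjusted p = 0.012). SAUR65 and SAUR15 had 1 h libraries above their HRFR libraries, and SAUR50 had not. SAUR16 (AT4G38860) had an interaction of -0.45 ± 0.09 (edgeR adjusted p = 0.0072), the smallest in size of the lower ones given here at 1 h. SAUR6 (AT2G21210) went the other way, at 41.7, 47.7 and 42.1 CPM at LRFR 1 h and 35.2, 30.9 and 34.6 CPM in HRFR, with an interaction of 0.63 ± 0.16 (edgeR adjusted p = 0.036) that 11 of 33 alternatives did not keep. AT1G29490 (SAUR68) had 4, 1 and 3 reads in the *pif457* libraries at LRFR 1 h, and its interaction of -3.71 ± 1.17 did not pass (edgeR adjusted p = 0.14).

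Part of the SAUR19 cluster was already lower in *pif457* before the light changed. In HRFR, 9 of 42 members had lower levels in *pif457* than in Col-0, with 0 higher, where 1.69% of all genes were lower. Of the SAUR19 cluster 5 of 6 were lower, with a median of log2 -1.18, and SAUR22 and SAUR19 were lowest at -2.48 and -2.30. The other 4 were SAUR65, SAUR29, SAUR15 and SAUR16. The count was 5 without Col-0 HRFR replicate 1 and 5 without *pif457* HRFR replicate 2, and 4 when only these groups were fitted. At LRFR 1 h, 24 of 42 were lower in *pif457* (2.41% of all genes) and 2, SAUR14 and SAUR6, were higher (1.8% of all genes). At LRFR 25 h, 24 of 42 were lower and 0 higher (4.04% of all genes were lower). Summed over the SAUR19 cluster, *pif457* had 18.4 ± 1.79 CPM in HRFR, 60.2 ± 1.99 CPM at LRFR 1 h and 53.4 ± 1.1 CPM at LRFR 25 h (SD, n = 3), against the Col-0 sums of 30.6, 237 and 121 CPM above. The SAUR26 cluster sum in *pif457* was 6.14 ± 0.483, 10.4 ± 0.143 and 8.90 ± 0.301 CPM. The guard cell marker sum was 44 to 45.7 CPM in *pif457* at LRFR 1 h, against 139 to 187 CPM in Col-0. Of these 4 markers, 1 was lower, KAT1 at 14.5 to 15.5 CPM in *pif457* and 117 to 161 CPM in Col-0, and 3 did not pass, with a list median of log2 0.19. Their part in the differences was not tested.

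In the libraries labelled *hfr1-101* most of the members that rose were those that rose in Col-0. At LRFR 1 h, 24 of 42 rose and 0 fell, where 1.62% of all genes rose, and 23 of these were among the 24 of Col-0 (95.8% of each list). The exceptions were SAUR61 (AT1G29420), called in *hfr1-101*, and SAUR16 (AT4G38860), called in Col-0. Their log2 values were close in the 2 genotypes. SAUR61 was at 1.07 in *hfr1-101* and 0.82 in Col-0. SAUR16 was at 0.56, below the fold threshold of 0.6, and at 0.70. At 25 h, 18 rose (3.35% of all genes rose) and 1, SAUR41 (AT1G16510), fell by 0.94 on the log2 scale (3.26% of all genes fell). Of the 18, 17 were among the 20 of Col-0, which is 94.4% of the first list and 85% of the second. SAUR22 was at 1.61, 1.57 and 1.47 CPM in HRFR, 30.6, 33.0 and 38.0 CPM at LRFR 1 h, and 27.4, 22.0 and 27.6 CPM at LRFR 25 h. SAUR28 was at 0.517, 0.533 and 0.359 CPM in HRFR, 7.57, 7.12 and 8.01 CPM at LRFR 1 h, and 1.91, 2.52 and 2.90 CPM at LRFR 25 h. For SAUR22 the 25 h libraries lay above all 3 of Col-0, and for SAUR28 they overlapped them.

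Between *hfr1-101* and Col-0 few differences passed. In HRFR 0 of 42 members differed, where 0.0575% of all genes were higher and 0.0239% lower in *hfr1-101*. At LRFR 1 h it was again 0 of 42, where 0.139% of all genes were higher and 0.0383% lower. At unadjusted p below 0.05, 1 member passed in each of these conditions, and DESeq2 called 0. At LRFR 25 h, 1 of 42 was higher and 0 lower (0.177% and 0.0766% of all genes). That gene was SAUR22, with log2 0.62 (edgeR adjusted p = 0.039), and 11 members had an unadjusted p below 0.05. The call was lost (0 members) without Col-0 HRFR replicate 3, any of the 3 *hfr1-101* HRFR libraries, *pif457* HRFR replicate 2, *hfr1-101* LRFR 1 h replicate 2, *pif457* LRFR 1 h replicate 3, Col-0 LRFR 25 h replicate 2 or 3, *hfr1-101* LRFR 25 h replicate 1 or 3, or *pif457* LRFR 25 h replicate 3. There were 2 without Col-0 LRFR 1 h replicate 3. The SAUR19 cluster sum at 25 h was 159 ± 22.0 CPM in *hfr1-101* and 121 ± 7.25 CPM in Col-0 (SD, n = 3 each). The interactions of *hfr1-101* with light passed for 0 of 42 members and for 0% of all genes in either direction at 1 h and at 25 h, with 1 and 5 members at an unadjusted p below 0.05 and 0 members in DESeq2.

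SAUR proteins act on plasma membrane proton pumps through clade D PP2C phosphatases. Of 11 plasma membrane H+-ATPase genes 9 were tested, and 0 passed in Col-0 at LRFR 1 h or 25 h against HRFR. Among all genes 1.42% rose and 0.685% fell at 1 h, and 2.38% rose and 1.66% fell at 25 h. A count of 0 among 9 genes is near these shares. HA1 (AT2G18960), a main pump of seedlings, averaged 502 ± 12.8 CPM at LRFR 1 h and 534 ± 32.9 CPM in HRFR (SD, n = 3 each). Of 9 clade D PP2C genes, all of them tested, 2 rose at 1 h in Col-0, where 1.42% of all genes rose, and 1 at 25 h, where 2.38% rose. AT5G02760 was at 129 ± 25.7 CPM at LRFR 1 h and 17.8 ± 0.423 CPM in HRFR, a log2 fold change of 2.86 ± 0.14 (edgeR adjusted p = 2.0e-13). AT5G66080 was at 30.6 ± 1.28 and 8.11 ± 1.66 CPM, a log2 fold change of 1.91 ± 0.13 (edgeR adjusted p = 7.3e-11). In *pif457* at 1 h these 2 averaged 24.9 and 5.95 CPM, and their interactions were -2.45 ± 0.19 and -1.66 ± 0.19, both past the test. Transcripts of the SAUR19 cluster and of these 2 phosphatase genes were thus both higher in Col-0 at LRFR 1 h than in HRFR.

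Of 35 further genes that the reference annotation names as small auxin up RNAs, 19 were tested. After 1 h of LRFR 3 of these rose in Col-0 and 0 fell, where 1.42% of all genes rose. At 25 h 3 rose, where 2.38% of all genes rose, and 1 fell, where 1.66% of all genes fell. AT2G37030 rose by log2 3.62 ± 0.48 at 1 h (edgeR adjusted p = 1.3e-05) and AT4G38825 by 2.83 ± 0.32 (edgeR adjusted p = 1.0e-06). In *pif457* 0 of the 19 rose at either time, where 0.139% of all genes rose at 1 h and 0.498% at 25 h. A count of 0 among 19 genes is near these shares. The difference in share from the 44 members was not tested, since the members were chosen with results known.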

How the data were processed

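RNA from pools of whole seedlings was sequenced with a stranded mRNA kit. Per the labels and the study's methods, the authors trimmed reads with cutadapt, removed ribosomal and low-complexity reads, used STAR for alignment to TAIR10, and obtained gene counts from HTSeq. Versions and the strand setting: not given in the sources used here. The deposited values are raw counts, 1 table of 34262 genes for 27 libraries. Lines that name no gene held 6.15 to 7.09% (no gene) and 4.44 to 4.82% (not unique) of reads and were left out.

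Counts were filtered with filterByExpr, scaled by TMM and fitted in edgeR 4.0.16 (quasi-likelihood F-test, 9 group means, R 4.3.3), with Benjamini-Hochberg adjustment over all 20887 genes. Light contrasts were called where the adjusted p was below 0.05 with a log2 fold change beyond 0.6 in size, and genotype and interaction contrasts at an adjusted p below 0.05. SEs were the log2 fold change divided by the square root of F. The p-values measure the spread between seedling pools. Alternatives were DESeq2 1.42.0, other scaling, no filter, no fold threshold, only the groups compared, a replicate block and leaving out libraries. Same-numbered libraries deviated together (all 3 correlations of deviations from the group means above 0.1) in 4 of 36 pairs of groups. Of these, 2 are compared here directly: Col-0 at 25 h with Col-0 in HRFR (0.621, 0.299 and 0.269) and *hfr1-101* with Col-0 at 25 h (0.444, 0.161 and 0.275). The other 2 enter only the interactions. They are *pif457* at LRFR 1 h (0.246, 0.227 and 0.158) and *hfr1-101* at LRFR 25 h (0.429, 0.129 and 0.255), each with Col-0 in HRFR. For the 2 compared directly, a replicate block with only the groups compared was added after seeing the data. It was not run for the interactions.

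The members and lists were chosen with earlier results of these data known. Values in every library are given, by rule, for the 2 tested members of each genomic cluster with the largest absolute log2 fold change in Col-0 at LRFR 1 h, and for each gene outside clusters called in Col-0 at 1 h or 25 h or in an interaction with *pif457*, 16 members in all. The wider family was taken as genes with the words small auxin up among their synonyms in the RefSeq annotation (TAIR10.1). Symbols alone had been planned, and AT5G01830 was left out by hand. Sequences are from the same annotation.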

Additional observations from a re-analysis of the deposited data

Results flagged for a closer look

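For 11 members described library by library, the responses of *pif457* and Col-0 to LRFR 1 h differed by the test of the interaction (edgeR quasi-likelihood F-test, Benjamini-Hochberg adjusted). In 10 of them the response was smaller in *pif457*, with log2 differences of -3.89 for SAUR10 (AT2G18010), -3.43 for SAUR28 (AT3G03830), -2.66 for SAUR1 (AT4G34770), -2.26 for SAUR26 (AT3G03850), -2.22 for SAUR9 (AT4G36110), -1.36 for SAUR23 (AT5G18060), -1.24 for SAUR65 (AT1G29460), -1.02 for SAUR50 (AT4G34760), -0.89 for SAUR15 (AT4G38850) and -0.45 for SAUR16 (AT4G38860). In SAUR6 (AT2G21210), which passed against HRFR in neither genotype, the difference was 0.63. The call of SAUR6 was lost in 11 of 33 alternatives and that of SAUR23 in 9. At LRFR 25 h the responses differed for SAUR26, at -1.13, and for SAUR50, at -0.49. These calls were lost in 22 and 1 of 33 alternatives.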

How the results depend on the processing

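Over 108 pairs of same-numbered libraries, 26 correlations of deviations exceeded 0.1 (median 0.0134, range -0.494 to 0.621). With the replicate block over all groups the counts of members called were 24 in Col-0 at 1 h, 20 at 25 h, 9 and 7 in *pif457*, and 23 and 4 for its interactions, and no count moved by over 1.5 times. With the block and only the groups compared, they were 20 in Col-0 at 25 h (19 of them shared with the 20 over all groups) and 1 for *hfr1-101* against Col-0 at 25 h. When only the groups compared were fitted, members called were 4 for *pif457* against Col-0 in HRFR (9 over all groups), 0 for *hfr1-101* against Col-0 at 25 h (1) and 0 for the *pif457* interaction at 25 h (5). Without both Col-0 libraries that stood apart, they were 5 for *pif457* against Col-0 in HRFR and 3 for *hfr1-101* against Col-0 at 25 h. DESeq2, other scaling, no filter and no fold threshold kept every count within 1.5 times.

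Leaving out each library in turn gave 24 members in Col-0 at 1 h, 19 to 21 at 25 h, and 17 to 22 at 25 h against 1 h. In *pif457* it gave 7 to 10 at 1 h and 6 to 8 at 25 h, and in *hfr1-101* 22 to 25 and 18 to 21. Against Col-0, *pif457* had 5 to 12 in HRFR, 24 to 26 at 1 h and 21 to 25 at 25 h, and *hfr1-101* had 0, 0 and 0 to 2. The *pif457* interactions had 18 to 24 at 1 h and 1 to 6 at 25 h, and the *hfr1-101* interactions 0 at both times. The cause of these changes was not tested. Of 3472 values of single genes, 3337 kept their call, 135 lost it and 0 reversed. Members at a few reads per library, such as SAUR68 (AT1G29490) in HRFR, limit what depth can show.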
